A study of Rattus norvegicus with 12 samples.

Results

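The circadian clock genes described here are Per1, Per2, Per3, Cry1, Cry2, Nr1d1, Nr1d2, Dbp, Tef and Clock. They were taken by symbol from the platform annotation, and each of the 10 genes had exactly 1 probe set among the 15310 probe sets (14506 genes) that carry a single gene symbol. Each of the 12 samples is liver RNA of male rats, hybridised to 1 Affymetrix Rat Gene 1.0 ST array, and all values are log2 signals. The rats were diet-induced obese Sprague-Dawley animals that received a high fat, high sucrose diet freely from 12 weeks of age for 8 weeks, and were 20 weeks old at sampling. The leucine group (4 samples) took 7.1% of its energy from casein and 2.9% from free leucine. The dairy group (4 samples) took 10% of its energy as protein from skim milk powder. The casein group (4 samples), the control, took 10% of its energy from casein, the main milk protein. All diets supplied 4.6 kcal per gram. Leucine was added where casein was reduced, so these changes cannot be told apart, and the same holds for the protein of skim milk and its remaining contents.

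In the mammalian clock, CLOCK pairs with BMAL1 and activates genes through E-box sequences. Among those genes are the Per and Cry genes, whose proteins repress CLOCK and BMAL1, and Nr1d1 and Nr1d2, which encode the REV-ERB receptors that repress Bmal1. Dbp and Tef encode related transcription factors that bind D-box sequences and carry the rhythm to metabolic genes in liver. Because these transcripts cycle over the day, their level in a liver depends on when the animal was sampled. The labels give no time of day, feeding state or order of sampling, so no hour can be assigned to any liver.

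Markers of hepatocytes were high in every library: all 8 markers were measured and their mean log2 signals lay between 11.01 and 13.7. Column medians lay between 4.432 and 4.616, and column SDs between 2.075 (dairy replicate 3, with casein replicate 4 next at 2.138) and 2.333. Correlations between arrays across probe sets lay between 0.9323 and 0.9896. The labels name no batch. They number the samples 1 to 4 without stating that each came from a separate rat, so the p-values measure the spread between these samples.

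None of the 10 clock genes passed the test between diets (limma, given with the comparisons). For Dbp, Nr1d1, Per3 and Cry2 the highest liver of each diet nevertheless exceeded the lowest at least 2.86-fold. Ranges of the other genes were smaller in some diets, down to 1.47-fold for Nr1d2 in dairy livers. Dbp had log2 signals of 8.73, 10.57, 6.68 and 8.56 in the 4 leucine livers, of 9.86, 8.24, 10.32 and 7.44 in the 4 dairy livers, and of 8.63, 10.49, 7.56 and 7.58 in the 4 casein livers. Each diet thus held a liver above 10 and a liver below 8, and the 3 groups overlapped. The highest liver exceeded the lowest 14.8-fold on the leucine diet, 7.4-fold on the dairy diet and 7.61-fold on the casein diet. Mean log2 signals were 8.64 ± 1.59 with leucine, 8.97 ± 1.36 with dairy and 8.57 ± 1.38 with casein (SD, n = 4 each). In whole liver, a lower signal from fewer cells of a type and from less RNA per cell cannot be told apart.

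Tef, the relative of Dbp, had log2 signals of 7.66, 8.20, 6.75 and 7.06 in leucine livers, of 7.93, 6.80, 8.23 and 6.78 in dairy livers, and of 7.46, 8.01, 6.94 and 7.45 in casein livers. Its high and low livers were those of Dbp on each diet. The range within a diet was smaller, 2.74-fold with leucine, 2.73-fold with dairy and 2.1-fold with casein.

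**Figure D1:**
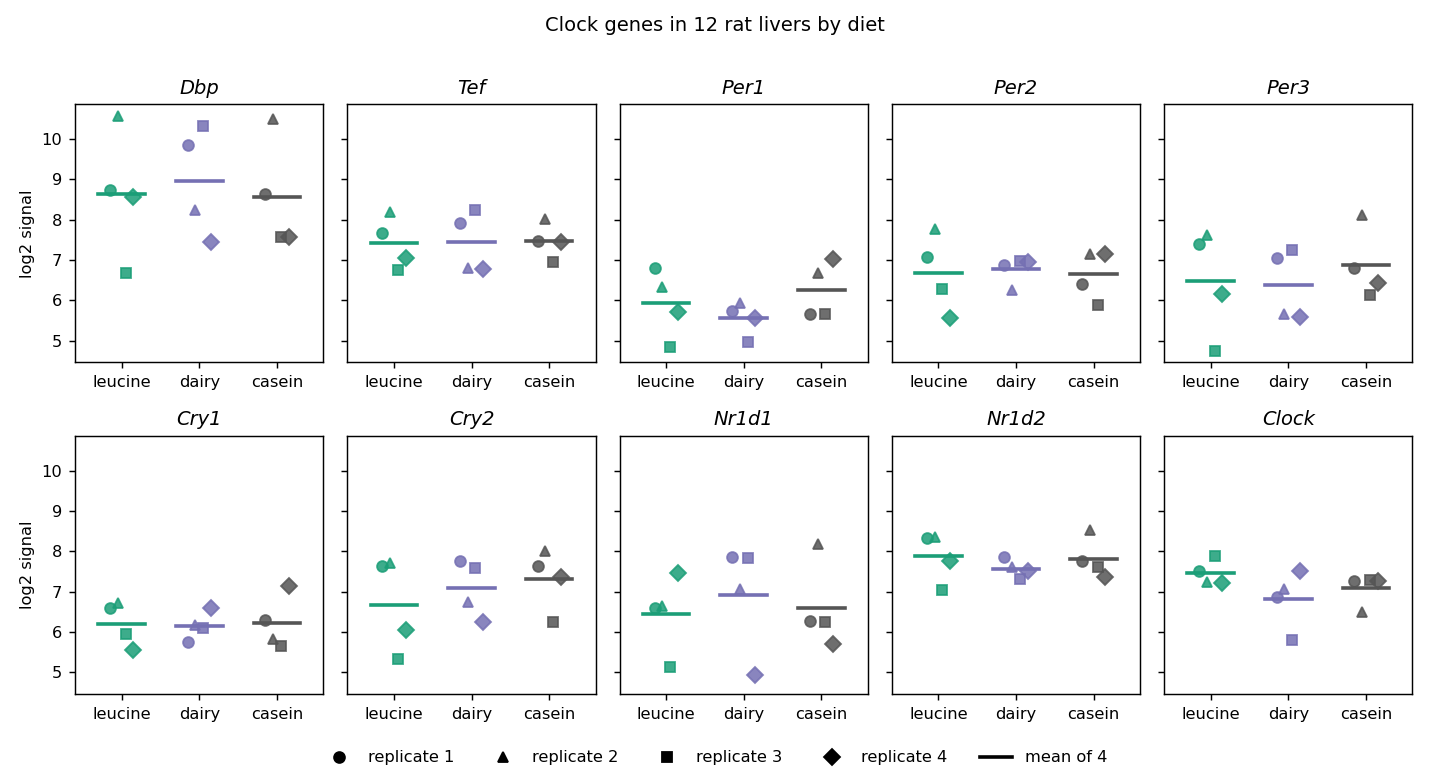
Log2 signal (y axis) of each of the 10 clock genes in every liver, by diet (x axis); symbols mark the replicate number and bars the mean of 4 livers. Dbp spans 6.68 to 10.57 within the leucine diet alone, and the diets overlap for every gene.

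Of the period genes, which encode repressors of CLOCK and BMAL1, Per3 had the widest range within a diet. Per3 had log2 signals of 7.39, 7.62, 4.75 and 6.15 in leucine livers, of 7.05, 5.67, 7.26 and 5.58 in dairy livers, and of 6.80, 8.12, 6.13 and 6.42 in casein livers. Leucine replicate 3 was lowest of all 12 livers and casein replicate 2 highest, 10.4-fold apart. Per2 had log2 signals of 7.08, 7.78, 6.28 and 5.57 in leucine livers, of 6.88, 6.26, 6.98 and 6.94 in dairy livers, and of 6.40, 7.16, 5.89 and 7.15 in casein livers. The dairy livers lay close together apart from replicate 2, and the leucine livers were the most scattered. Per1 had log2 signals of 6.81, 6.32, 4.84 and 5.72 in leucine livers, of 5.73, 5.93, 4.97 and 5.57 in dairy livers, and of 5.67, 6.69, 5.67 and 7.03 in casein livers. Casein replicates 2 and 4 exceeded every dairy liver, whereas casein replicates 1 and 3 lay within the dairy range.

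The cryptochromes, the partners of the period proteins in repression, had different patterns. Cry2 had log2 signals of 7.63, 7.71, 5.33 and 6.04 in leucine livers, of 7.76, 6.74, 7.59 and 6.24 in dairy livers, and of 7.63, 8.00, 6.24 and 7.37 in casein livers. Leucine replicate 3, dairy replicate 4 and casein replicate 3 were lowest in their diets, as they were for Dbp. Cry1 had log2 signals of 6.59, 6.71, 5.94 and 5.55 in leucine livers, of 5.75, 6.17, 6.10 and 6.60 in dairy livers, and of 6.29, 5.83, 5.64 and 7.14 in casein livers. For Cry1, dairy replicate 4 and casein replicate 4 were the highest of their diets, and Dbp was low in both. Among leucine livers, replicate 2 was highest for Cry1 and also for Dbp.

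Nr1d1, which encodes REV-ERB alpha, had log2 signals of 6.59, 6.64, 5.12 and 7.46 in leucine livers, of 7.86, 7.07, 7.84 and 4.93 in dairy livers, and of 6.27, 8.17, 6.24 and 5.70 in casein livers. Dairy replicate 4 and leucine replicate 3 stood lowest and casein replicate 2 highest, a 9.45-fold range. Nr1d2, which encodes REV-ERB beta, varied less, with log2 signals of 8.32, 8.36, 7.05 and 7.76 in leucine livers, of 7.85, 7.62, 7.30 and 7.51 in dairy livers, and of 7.76, 8.53, 7.62 and 7.35 in casein livers.

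Clock, the activator, ran the other way. It had log2 signals of 7.50, 7.23, 7.88 and 7.22 in leucine livers, of 6.86, 7.06, 5.79 and 7.50 in dairy livers, and of 7.27, 6.49, 7.29 and 7.25 in casein livers. Clock was highest in leucine replicate 3, where Dbp was lowest, and was lowest in dairy replicate 3 and casein replicate 2, where Dbp was highest in those diets. Bmal1, the partner of CLOCK and not one of the 10, had log2 signals of 5.69, 3.96, 6.71 and 4.20 in leucine livers, of 4.93, 4.77, 3.81 and 5.98 in dairy livers, and of 5.64, 4.12, 5.26 and 6.28 in casein livers. Leucine replicate 2, dairy replicate 3 and casein replicate 2 had the lowest Bmal1 signal of their diets. These signals and that of leucine replicate 4 lay below the lowest column median of 4.432.

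The question set by the diets was whether leucine or dairy protein in place of casein was accompanied by other clock gene levels. For leucine against casein, 0 of 10 clock genes passed the test of limma, a linear model fitted to all probe sets, at an adjusted p of 0.05, and 0 had an unadjusted p under 0.05. Over all probe sets 0.0% were called in that comparison and 3.31% had an unadjusted p under 0.05. The log2 differences, leucine minus casein, ran from -0.63 for Cry2 to 0.38 for Clock, 4 above and 6 below 0, with limma adjusted p of 0.999 for each gene. With 1 array left out, the Cry2 difference ran from -0.99 (without casein replicate 3) to -0.18 (without leucine replicate 3), and the Clock difference from 0.19 (without casein replicate 2) to 0.46. For Dbp the difference was 0.07 with a 95% interval of -1.83 to 1.97, which leaves room for several-fold differences either way.

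For dairy against casein, 0 of 10 clock genes passed by limma and 0 had an unadjusted p under 0.05, beside 0.0849% of all probe sets called and 10.9% with an unadjusted p under 0.05. The log2 differences, dairy minus casein, ran from -0.72 for Per1 to 0.4 for Dbp, with limma adjusted p between 0.54 and 0.983. Per1 averaged 5.55 ± 0.414 in dairy livers and 6.26 ± 0.701 in casein livers (SD, n = 4 each), a log2 difference of -0.72 ± 0.421 SE (95% interval -1.63 to 0.2, limma adjusted p = 0.54). Without casein replicate 4 the Per1 difference was -0.46 and without both arrays of narrowest spread it was -0.27. The Dbp interval ran from -1.5 to 2.3.

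For leucine against dairy, limma again called 0 of 10 clock genes, and 0 had an unadjusted p under 0.05, beside 0.0% of all probe sets called and 6.95% with an unadjusted p under 0.05. The lowest unadjusted p of a clock gene in any comparison was that of Clock, which averaged 7.46 ± 0.31 in leucine livers and 6.8 ± 0.725 in dairy livers (SD, n = 4 each). Its log2 difference, leucine minus dairy, was 0.66 ± 0.322 SE (95% interval -0.04 to 1.36, limma unadjusted p = 0.0634, adjusted p = 0.725). Without dairy replicate 3, the array of narrowest spread, it was 0.32. Without dairy replicate 4 it was 0.89 (limma unadjusted p = 0.0154, adjusted p = 0.465). With the acute phase genes as a covariate it was 0.72 (limma unadjusted p = 0.0202, adjusted p = 0.454). The other differences ran from -0.47 for Nr1d1 to 0.37 for Per1. The 3 comparisons share samples and are not independent of each other.

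No clock gene had diets whose livers did not overlap, in a data set where 2.44% of all probe sets had separate leucine and casein livers, 4.27% separate dairy and casein livers, and 5.09% separate leucine and dairy livers. A limma F test for any diet difference gave adjusted p of 0.764 to 0.999 for the 10 genes (0 called), beside 0.0327% of all probe sets called. The median log2 difference of the 10 genes was -0.04 for leucine minus casein (all probe sets -0.03), -0.15 for dairy minus casein (all -0.02) and 0.01 for leucine minus dairy (all -0.01).

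**Figure D2:**
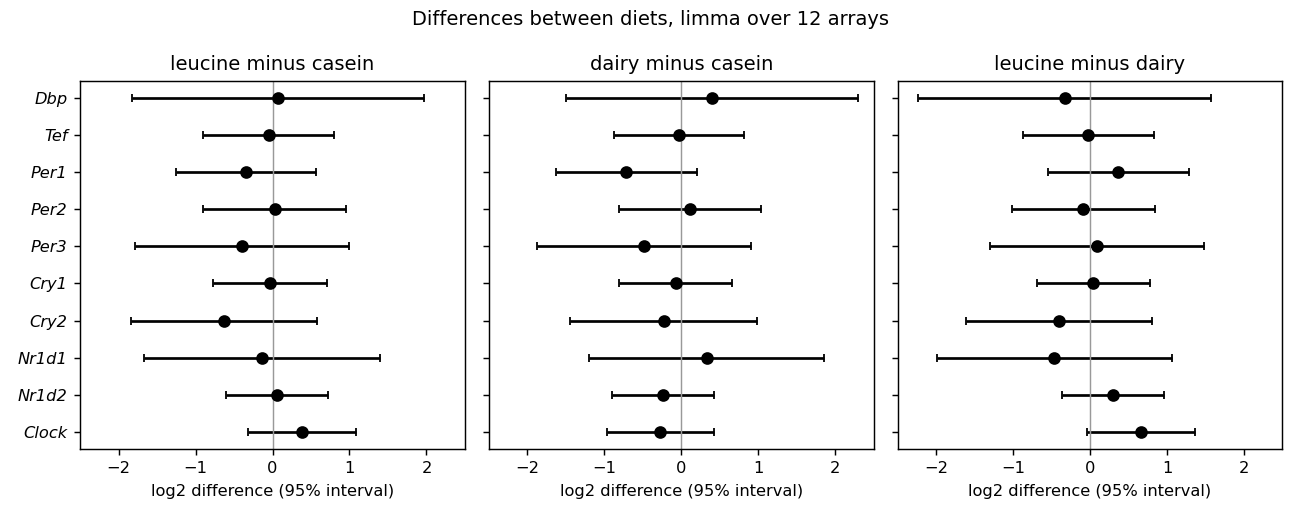
Log2 difference between diets (x axis) of each clock gene (y axis) with its 95% interval from limma, in 3 panels; a positive value means a higher signal in the diet named first. All 30 intervals include 0, and the Dbp interval for dairy minus casein runs from -1.5 to 2.3.

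The spread between livers of the same diet was wide beside that of other genes. The SD pooled over the diets was 1.44 for Dbp, 1.16 for Nr1d1, 1.05 for Per3 and 0.911 for Cry2. These values lay at the 99.3, 98.5, 98.0 and 97.1 percentile of the single-symbol probe sets, whose median was 0.295. Per2 (0.686), Per1 (0.679) and Tef (0.626) also lay above the 90th percentile of 0.584. Cry1 (0.538), Clock (0.507) and Nr1d2 (0.477, the 82.6 percentile) had the smallest spread of the 10 genes, and the median of the 10 was 0.682. Differences between diet means took up a median of 4.31% of a clock gene's variance, with Tef lowest (0.148%) and Clock highest (27.3%), and 16.7% over all probe sets. Means of few livers differ by sampling alone, so these shares do not by themselves measure an effect of diet. These ranks are a description, given without a test, and log2 signals near the background understate a gene's spread.

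**Figure D3:**
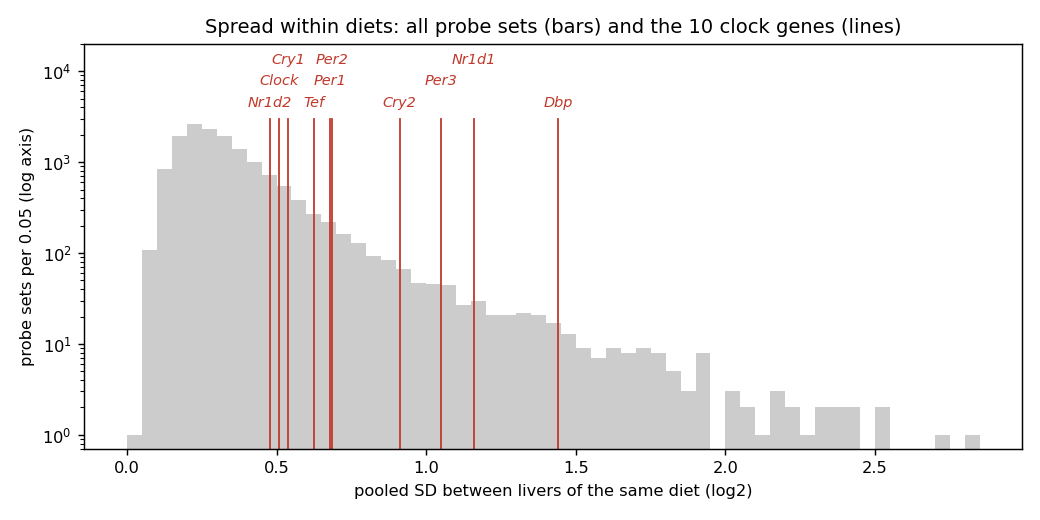
Number of probe sets (y axis, log scale) by SD between livers of the same diet on the log2 scale (x axis), with a line for each of the 10 clock genes. The clock genes lie between 0.477 (Nr1d2) and 1.44 (Dbp), above the median of all probe sets at 0.295.

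Livers that stood high or low in their diet often did so for several clock genes. Among leucine livers, replicate 2 was highest for 7 of the 10 clock genes and replicate 3 was lowest for 7. Among dairy livers, replicate 3 was highest for 4 and lowest for 3 (Per1, Nr1d2 and Clock), replicate 1 was highest for 3 and replicate 4 lowest for 5. Among casein livers, replicate 2 was highest for 7 and replicate 3 lowest for 6. Each liver was placed on a clock axis, the mean deviation from its diet of Dbp, Tef, Per3, Nr1d1 and Nr1d2 minus that of Bmal1, Npas2 (another partner of BMAL1), Clock and Cry1. The axis gave 0.28, 1.28, -2.05 and 0.49 in the 4 leucine livers, 0.64, -0.34, 1.24 and -1.55 in the 4 dairy livers, and -0.2, 1.72, -0.35 and -1.17 in the 4 casein livers. The range was 3.34 with leucine, 2.79 with dairy and 2.89 with casein, and since each value is a deviation from its diet mean, every diet has livers on both sides of 0 by construction. The axis was built with earlier results of these data known and is given as a description, without a test. Cry2, Per1 and Per2 are not part of it. Of the subtracted genes, Npas2 and Cry1 did not pass with Bmal1 or Clock in the correlation test given below (r = 0.13 to 0.46). Between Cry1 and Npas2 r was -0.17 (rho -0.22, exact permutation adjusted p = 0.79). Some signals of Bmal1 and Npas2 lay below the lowest column median. The axis orders the livers by expression and assigns them no time.

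**Figure D4:**
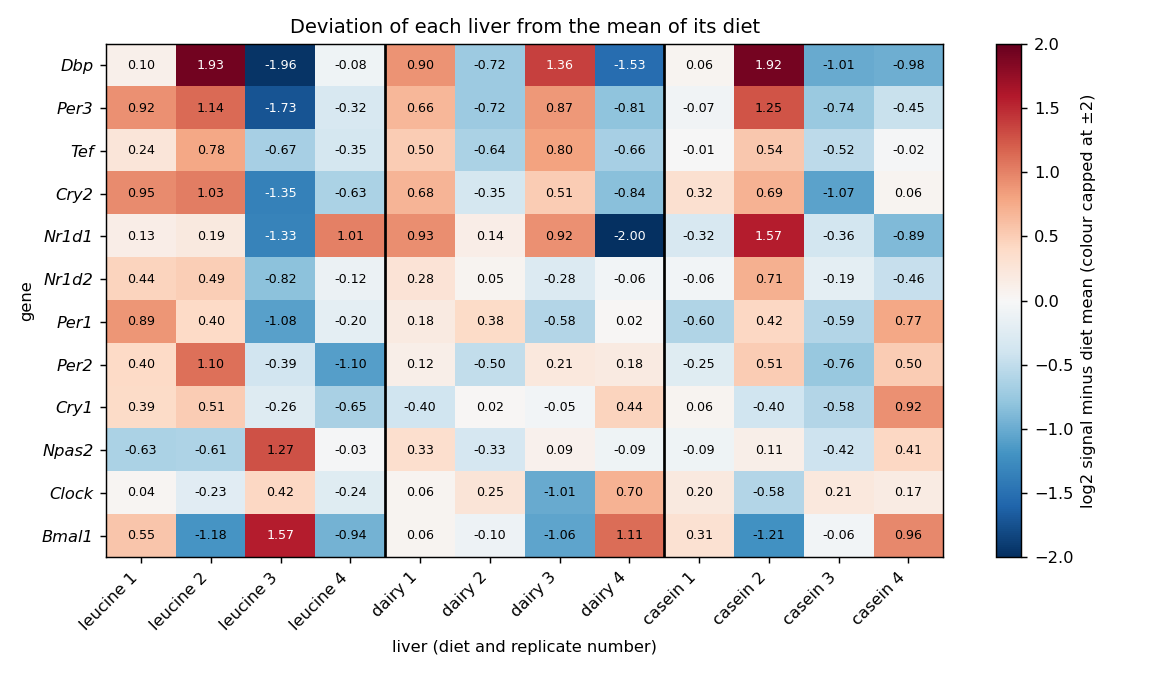
Deviation of each liver (columns, by diet) from the mean of its diet, in log2 signal, for the 10 clock genes with Bmal1 and Npas2 (rows); red is above and blue below the diet mean. Leucine replicate 2, dairy replicate 3 and casein replicate 2 are high for Dbp, Per3 and Tef and low for Bmal1 and Clock.

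Pairs of genes were then compared over the 12 livers, each value taken as its deviation from the mean of its diet. The 10 clock genes with Bmal1 and Npas2 gave 66 pairs, of which 15 passed an adjusted p of 0.05 by an exact two-sided permutation test that used all 13824 orders of livers within diets. Of the 15 pairs, 9 correlated positively and 6 negatively, and 12 lay among the 45 pairs of clock genes. By Spearman's rho 13 pairs passed, all of them among the 15, and 23 pairs had an unadjusted p under 0.05. Genes measured on the same array share that array's labelling and scaling.

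Dbp, Per3, Tef and Cry2 varied together. Per3 and Dbp had r = 0.94 and rho = 0.97 over the 12 livers (exact permutation p = 7.2e-05, adjusted p = 0.0048), and 7.2e-05 is the smallest p these orders can give. Without the 2 livers farthest from the median Per3 value, r was 0.91. For every pair, the 2 farthest livers were judged by 1 gene. It was the gene that comes first in the order of the opening list, followed by Bmal1 and Npas2. Per3 and Cry2 had r = 0.93 and rho = 0.94 (exact permutation adjusted p = 0.0080; r = 0.91 without the 2 farthest livers). Dbp and Tef had r = 0.92 and rho = 0.94 (exact permutation adjusted p = 0.0080; r = 0.88 without the 2 farthest). Per3 with Tef (0.92), Cry2 with Tef (0.90) and Cry2 with Dbp (0.84) completed the 6 pairs of this set (rho 0.92, 0.87 and 0.92), with exact permutation adjusted p of 0.016 to 0.025 and r of 0.94, 0.88 and 0.78 without the 2 farthest livers.

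Nr1d1 correlated with Dbp at r = 0.81 and rho = 0.79 (exact permutation adjusted p = 0.029), and r was 0.70 without the 2 farthest livers. Nr1d2 passed with Per3 and with no other of the 11 genes, at r = 0.80 (exact permutation adjusted p = 0.046). Its rho of 0.72 did not pass (adjusted p = 0.098), and r was 0.61 without the 2 farthest livers. The remaining positive pair was Clock with Bmal1, at r = 0.82 and rho = 0.75 (exact permutation adjusted p = 0.016; r = 0.81 without the 2 farthest).

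The 6 negative pairs each joined Clock or Bmal1 to Dbp, Nr1d1, Tef or Per3. Clock had r = -0.80 with Dbp (rho -0.83, exact permutation adjusted p = 0.016; r = -0.84 without the 2 farthest), and r = -0.81 with Nr1d1, -0.77 with Tef and -0.72 with Per3 (rho -0.83, -0.86 and -0.85, exact permutation adjusted p = 0.029 each; r = -0.69, -0.68 and -0.64 without the 2 farthest). Bmal1 had r = -0.84 with Nr1d1 (rho -0.84, exact permutation adjusted p = 0.017; r = -0.74 without the 2 farthest). With Dbp, Bmal1 also had r = -0.84 (exact permutation adjusted p = 0.023; r = -0.74 without the 2 farthest), whereas rho of -0.77 did not pass (adjusted p = 0.063). The lowest Bmal1 signals behind these values lay below the lowest column median.

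**Figure D5:**
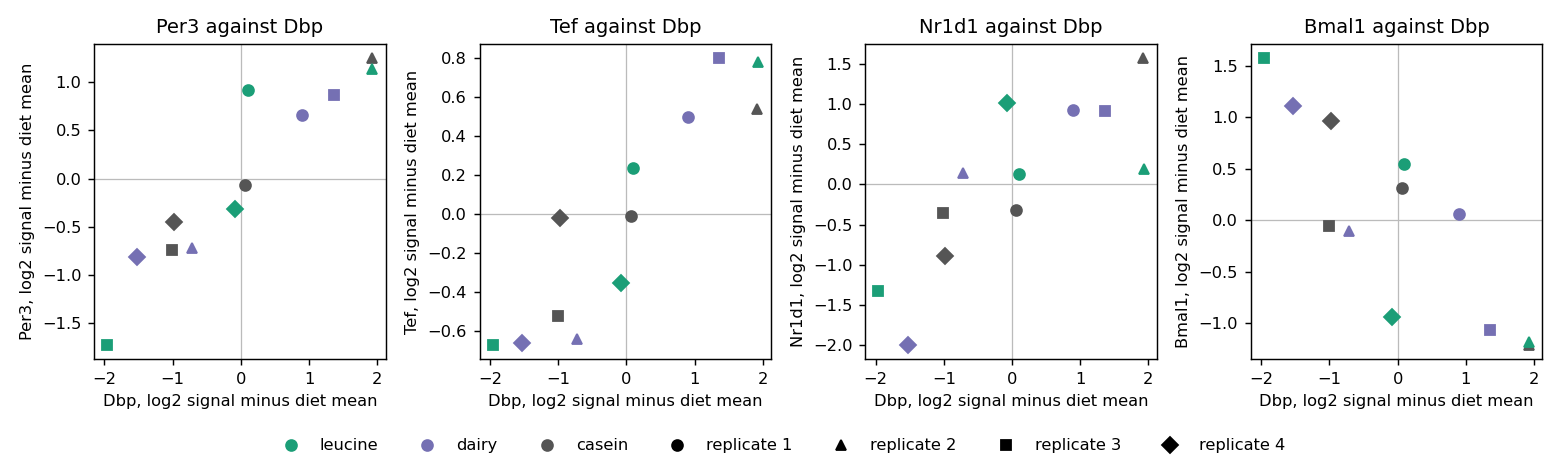
Deviation from the diet mean, in log2 signal, of Per3, Tef, Nr1d1 and Bmal1 (y axes) against that of Dbp (x axis) in 12 livers, coloured by diet with symbols for replicate number. Per3 and Tef rise with Dbp (r = 0.94 and 0.92), and Bmal1 runs against it (r = -0.84).

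Per1, Per2 and Cry1 were in none of the 15 pairs, nor was Npas2. Per1 had r = 0.30 with Dbp (rho 0.42, exact permutation adjusted p = 0.53; r = 0.08 without the 2 farthest livers), Per2 r = 0.53 (rho 0.59, adjusted p = 0.25; r = 0.49) and Cry1 r = -0.09 (rho 0.03, adjusted p = 0.85; r = 0.06). Leaving out the 2 livers farthest for Dbp instead gave r = -0.04 for Per1, 0.33 for Per2 and -0.42 for Cry1. Among themselves, Per1 and Per2 had r = 0.56 (rho 0.66, exact permutation adjusted p = 0.26; r = 0.54 without the 2 farthest) and Per2 and Cry1 r = 0.67 (rho 0.64, adjusted p = 0.14; r = 0.51). With 12 livers a moderate correlation could not be told from 0, and whether these correlations differ from those of the passing pairs was not tested.

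Single livers carried much of the count of passing pairs. Without casein replicate 2 only 2 pairs passed, without leucine replicate 3 4 pairs, without dairy replicate 4 6 pairs and without leucine replicate 2 8 pairs. Leaving out any other liver gave 10 to 18 pairs. The sign of the 15 correlations never turned: with 1 array out the smallest absolute r was 0.64, and only Per3 with Dbp passed under each of the 12 omissions. Without dairy replicate 3 and casein replicate 4, the arrays of narrowest spread, 13 pairs passed, 10 of them among the 15. The array SD had r = -0.08 with Dbp (rho -0.05, exact permutation p = 0.8, adjusted p = 0.93; r = 0.02 without the 2 farthest).

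As a background, 2.36% of the single-symbol probe sets had an absolute r with Dbp above 0.8. An absolute r at least as high as that of Per3 was reached by 0.026%, of Tef by 0.065%, of Cry2 by 0.9%, of Bmal1 by 1.1%, of Nr1d1 by 1.9% and of Clock by 2.1%. For Nr1d2 the share was 6.6%, for Per2 27%, for Per1 54% and for Cry1 86%. Among 7123 genes of above-median signal, those outside the 10 clock genes that were most like Dbp over the 12 livers were Usp30 (r = 0.95), a mitochondrial deubiquitinase, Sfxn1 (0.91), a mitochondrial serine carrier, Pink1, Osbpl11 and Shroom3 (0.90 each). Those running most against it were Zmynd19 (-0.94), Dcps (-0.93), Hyou1 (-0.92), Atf6b and Alg12 (-0.91 each). Of the genes named as most like Dbp, only Usp30 had a higher r than Per3 (0.94) and Tef (0.92). By absolute r, Zmynd19 (-0.94) matched Per3 at the digits given, and Dcps (-0.93) and Hyou1 (-0.92) matched or exceeded Tef. For Nr1d1 the most alike outside the clock genes were Coro7 (0.91), Aldh1a1 (0.90), Hs6st1 and Hsd17b2 (0.89 each) and Zbtb14 (0.88), and the most opposed were Tmem164 (-0.92), F7 (-0.88), Selenos and Ccdc134 (-0.87 each) and Tm2d3 (-0.86). These genes are the extremes of all non-member genes compared and are named without a test.

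Promoters are shown for Tef and Nr1d1, which varied with Dbp, for Bmal1, which varied against it, and for Per2, which was in no passing pair, because each holds letters of a sequence through which clock factors act. RefSeq windows of 300 bases (250 before the gene start and 50 after) were searched on both strands for an E-box (CACGTG), an E'-box (CACGTT), a D-box (TTATGTAA) and the core of a REV-ERB site (TAGGTCA), and 6.42%, 4.83%, 0.893% and 2.63% of all 33469 windows hold them. Capitals mark the matches, and the 250 bases before the start are printed, 5′ to 3′ on the gene's strand. In build GRCr8, Tef (chr7:115206577-115206826, + strand) has an E-box 198 bases before its start. Nr1d1 (chr10:84229455-84229704, - strand) has an E-box 191 bases before 1 of its starts. Per2 (chr9:99496994-99497243, - strand) has a D-box at 192 and an E'-box at 62 bases. Bmal1 (chr1:176766078-176766327, + strand) has the REV-ERB core at 16 bases.
Tef promoter: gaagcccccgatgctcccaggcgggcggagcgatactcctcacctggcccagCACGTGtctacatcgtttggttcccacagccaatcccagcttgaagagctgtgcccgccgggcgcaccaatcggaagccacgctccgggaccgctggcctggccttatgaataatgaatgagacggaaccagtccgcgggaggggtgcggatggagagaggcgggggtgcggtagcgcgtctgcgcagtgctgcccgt
Nr1d1 promoter: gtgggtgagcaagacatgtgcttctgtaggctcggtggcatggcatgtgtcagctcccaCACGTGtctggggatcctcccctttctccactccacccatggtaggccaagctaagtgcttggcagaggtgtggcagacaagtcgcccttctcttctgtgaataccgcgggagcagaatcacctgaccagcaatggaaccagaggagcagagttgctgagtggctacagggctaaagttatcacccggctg
Per2 promoter: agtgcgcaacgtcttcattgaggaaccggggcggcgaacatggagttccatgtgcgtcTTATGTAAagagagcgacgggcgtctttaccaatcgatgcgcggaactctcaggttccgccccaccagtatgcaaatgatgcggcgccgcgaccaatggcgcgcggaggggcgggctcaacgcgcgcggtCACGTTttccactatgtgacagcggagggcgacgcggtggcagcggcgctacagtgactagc
Bmal1 promoter: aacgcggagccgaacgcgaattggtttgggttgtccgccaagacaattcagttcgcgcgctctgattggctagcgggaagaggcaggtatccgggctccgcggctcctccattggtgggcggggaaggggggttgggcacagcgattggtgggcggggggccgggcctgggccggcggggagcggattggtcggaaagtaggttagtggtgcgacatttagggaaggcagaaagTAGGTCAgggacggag

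Cry2 has an E'-box 212 bases before its start, and the other Nr1d1 start an E'-box at 174. The windows of Dbp, Per3, Per1, Nr1d2 and both Clock starts hold none of these letters, and Cry1 was not searched here. A match is a description of the sequence and no measure of binding.

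Other clock genes were read from lists chosen with earlier results known. Of the partner genes, 6 of 11 were measured (Bmal1, Npas2, Nfil3, Bhlhe40, Bhlhe41 and Bmal2), and limma called 0 in each of the 3 comparisons, with 0 at an unadjusted p under 0.05. Nfil3, a repressor at D-boxes, averaged 8.09 ± 0.147 in leucine livers and 7.5 ± 0.55 in dairy livers (SD, n = 4 each; log2 difference 0.6 ± 0.293 SE, limma adjusted p = 0.726). Npas2 had a log2 difference of 0.49 ± 0.361 SE for dairy minus casein (limma adjusted p = 0.637). Its casein mean of 4.17 lay below the lowest column median of 4.432. Bhlhe40 and Bhlhe41, which repress at E-boxes, had differences between -0.13 and 0.06, and those of Bmal2 lay between -0.05 and 0.18. All signals of Bhlhe41 and Bmal2 lay below the lowest column median of 4.432, so their differences say little about these genes.

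Of the kinases, ligases and cofactors that modify clock proteins, 17 of 20 were measured and limma called 0 in each comparison; at an unadjusted p under 0.05, 0 differed between leucine and casein, 2 had lower means with dairy than with casein, and 2 had higher means with leucine than with dairy, beside 3.31%, 10.9% and 6.95% of all probe sets in these comparisons. Means were lower with dairy than with casein for 15 of the 17 (median log2 difference -0.26, all probe sets -0.02). For 16 they were higher with leucine than with dairy (median 0.19, all -0.01). Genes that vary together over the same arrays are not separate observations. These counts of directions, here and for the lists that follow, were not tested. Gsk3b, a kinase that acts on several clock proteins, averaged 7.27 ± 0.408 in dairy livers and 8.08 ± 0.278 in casein livers (SD, n = 4 each; log2 difference -0.82 ± 0.25 SE, limma adjusted p = 0.305). Its dairy and casein livers did not overlap, beside 4.27% of all probe sets without overlap in this comparison.

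Of the rhythmic liver genes downstream of the clock, 24 of 26 were measured and limma called 0 in each comparison; at an unadjusted p under 0.05, 0 differed between leucine and casein, 1 had a lower mean with dairy than with casein, and 3 had higher means with leucine than with dairy, beside the same shares of all probe sets. Means were lower with dairy than with casein for 21 of the 24 (median log2 difference -0.41, all probe sets -0.02). For 18 they were higher with leucine than with dairy (median 0.3, all -0.01). As for the modifiers, these genes are not separate observations, and the counts were not tested. Bhmt, a methyltransferase of homocysteine, averaged 11.76 ± 0.21 in dairy livers and 12.89 ± 0.338 in casein livers (SD, n = 4 each), with no overlap (log2 difference -1.13 ± 0.206 SE, limma adjusted p = 0.0633). Wee1, a cell cycle kinase, averaged 4.17 ± 0.0626 in dairy livers and 4.88 ± 0.309 in casein livers (log2 difference -0.71 ± 0.344 SE, limma adjusted p = 0.47). Dairy and casein livers did not overlap for Wee1 either, beside 4.27% of all probe sets without overlap in this comparison. The dairy mean of Wee1 lay below the lowest column median of 4.432. Tfrc, the transferrin receptor, had a log2 difference of 1.24 ± 0.419 SE for leucine minus dairy (limma adjusted p = 0.657).

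Of the glucocorticoid and feeding responsive genes, 17 of 20 were measured and limma called 0 in each comparison; at an unadjusted p under 0.05, 0 differed between leucine and casein, 1 had a lower mean with dairy than with casein, and 1 had a higher mean with leucine than with dairy, again beside 3.31%, 10.9% and 6.95% of all probe sets. Means were lower with dairy than with casein for 12 of the 17 (median log2 difference -0.24, all probe sets -0.02) and higher with leucine than with dairy for 13 (median 0.33, all -0.01). Ppargc1a, a coactivator of gluconeogenic genes, averaged 3.78 ± 0.239 in dairy livers and 4.88 ± 0.726 in casein livers (SD, n = 4 each, log2 difference -1.1 ± 0.329 SE, limma adjusted p = 0.295). Dairy and casein livers did not overlap for Ppargc1a, beside 4.27% of all probe sets without overlap in this comparison. The dairy mean of Ppargc1a lay below the lowest column median of 4.432. Igfbp1, an insulin-suppressed binding protein, averaged 11.84 ± 0.598 in leucine livers and 9.99 ± 1.96 in casein livers (log2 difference 1.86 ± 0.957 SE, limma adjusted p = 0.999).

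The deviations of Dbp and Per1 were set beside those of 47 genes of the partner, downstream and glucocorticoid and feeding lists, 94 relations chosen after the data were seen. By the exact permutation test 0 relations passed (smallest adjusted p = 0.17), with 10 for Dbp and 6 for Per1 at an unadjusted p under 0.05. Bmal1 with Dbp is among these 94 and did not pass in this larger family (adjusted p = 0.17), although it passed among the 66 pairs. Adjustment over the 24 downstream genes with Dbp alone, the narrower set looked at first, also gave 0 (smallest adjusted p = 0.095). Igfbp1 had r = -0.76 and rho = -0.76 with Dbp (exact permutation p = 0.0053, adjusted p = 0.17; r = -0.83 without the 2 farthest livers), and Alas1, the first enzyme of haem synthesis, r = 0.72 and rho = 0.85 (exact permutation p = 0.022, adjusted p = 0.24; r = 0.70).

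Markers of other cells and acute phase genes were also set beside Dbp, Nr1d1 and Per1, with measures of the arrays, and 0 of these 39 relations passed by the exact permutation test. The lowest adjusted p, 0.53, was that of Dbp with the neutrophil markers (r = -0.78, rho = -0.73, exact permutation p = 0.014; r = -0.72 without the 2 farthest livers). All 6 neutrophil markers were measured, with summed linear signals of 75.9 to 585 in leucine livers, 113 to 791 in dairy livers and 88.7 to 424 in casein livers, and the lowest marker reached a log2 signal of 2.47. Dbp had r = -0.69 and rho = -0.80 with the 16 measured acute phase genes of 17 (exact permutation p = 0.032, adjusted p = 0.55; r = -0.75 without the 2 farthest), whose summed linear signals were 46300 to 92300 in leucine livers, 58500 to 106000 in dairy livers and 49700 to 93200 in casein livers. limma called 0 acute phase genes in each of the 3 comparisons, with 0 at an unadjusted p under 0.05. The part of these cells and of the acute phase in the spread of the clock genes was not tested.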

How the data were processed

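The deposited values are log2 signals, 1 per probe set and array, which the authors prepared in Expression Console by Affymetrix, per the submitters' processing notes, with version, algorithm and build not given in the sources used here. The number of arrays limits the precision, and differences in spread between arrays remained. Samples were grouped by the diet in their labels. Of 29214 probe sets, the platform annotation gives 15310 a single symbol and 323 several, and does not list 13581; only the 15310 were tested. The Entrez IDs of 15279 were found in the RefSeq gene table, all with the same symbol, under which Arntl is Bmal1.

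The comparison of diets used limma 3.58.1 (R 4.3.3): lmFit with a mean per diet over 12 arrays, then eBayes, with residual and prior degrees of freedom of 9 and 3.448. All tests were two-sided, with Benjamini-Hochberg adjustment over the 15310 probe sets and a threshold of 0.05. On simulated data for dairy against casein over 15310 probe sets, 63 of 100 changes of 1 log2 unit and 95 of 100 changes of 2 were recovered, with 4 false calls. The changes were placed in probe sets drawn at random, and the median pooled SD of all probe sets was 0.295. The clock genes had pooled SDs of 0.477 to 1.44, so these shares do not measure what could be called among them.

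Correlations were taken over deviations from diet means, with p-values from permuting livers within diets, adjusted over each family. A first run drew 100000 random orders. It was replaced by all 13824 orders after its p-values were seen, because drawn p fell below the smallest possible. The count of 15 passing pairs was the same, and the counts without dairy replicate 1 and without leucine replicate 2 became smaller. Permuting within diets was chosen after r values had been seen, and so were the relations of Dbp, Nr1d1 and Per1 with other lists, markers and array measures.

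The members and lists were chosen with earlier results of these data known. Named were all members, all measured partners, up to 2 genes of each other list by smallest unadjusted p in a comparison, and the 5 genes with the highest and the lowest r to Dbp and to Nr1d1; genes named from the relations with Dbp were chosen after their values were seen. Alternatives were quantile normalization, median centring, all or only bright probe sets, trend and robust eBayes, array weights, only the arrays of both diets, a replicate block, an acute phase covariate, and leaving out arrays. Promoter sequences and their coordinates came from a RefSeq table of build GRCr8.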

Additional observations from a re-analysis of the deposited data

Results flagged for a closer look

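In 51 groups of 4 values (the 10 clock genes, 6 partners and the clock axis in 3 diets), 3 livers stood apart from the rest of their diet by Dixon's gap test. Chance flags about 1 in 20 groups. The partners other than Bmal1 and Npas2 and the clock axis were added to this search after the first groups had been looked at. Per2 was lowest in dairy replicate 2 at a log2 signal of 6.26, beside 6.88 to 6.98 in the other dairy livers. Clock was lowest in casein replicate 2 at 6.49, beside 7.25 to 7.29 in the other casein livers, and that liver had the highest Dbp signal of its diet. Bmal2, a relative of Bmal1, was highest in leucine replicate 1 at 4.35, beside 3.75 to 3.81 in the other leucine livers. All its signals lay below the lowest column median of 4.432, so this flag rests on low signals.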

How the results depend on the processing

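None of the 10 clock genes passed limma's test in any comparison under any of 22 alternative settings (660 values, lowest adjusted p 0.159; 3 had an unadjusted p under 0.05). The 3 were Per3 for dairy minus casein with array weights, and Clock for leucine minus dairy with the acute phase covariate and without dairy replicate 4. Differences of the 10 clock genes were small beside the spread, and 79 of the 660 turned sign, 48 of them with 1 array left out. The cause was not tested. Many of the 660 could not turn. All or only bright probe sets, trend and robust, only the arrays of both diets and the replicate block leave a difference unchanged. Leaving out an array of the third diet does so too. The counts therefore understate how readily signs turned. The replicate numbers gave no clear sign of pairing, which these few arrays cannot settle. Same-numbered arrays of different diets had correlations of deviations from -0.51 to 0.59, 7 of 12 over 0.1, and 2 of 12 arrays were closest to their own number. The replicate block changed no call of a clock gene and gave 1 probe set called for leucine minus dairy. Probe sets called for dairy minus casein (13) came to 22 after quantile normalization, 42 over all probe sets, 8 with trend and robust, 1182 with array weights, 6 with only the 8 arrays of both diets, 164 without both arrays of narrowest spread, and 3 to 237 with 1 array left out (237 without casein replicate 4). For leucine minus casein 0 to 2 were called with 1 array left out (2 without leucine replicate 2). Passing pairs numbered 15 with diet means kept, 13 after median centring, 20 after quantile normalization and 2 to 18 with 1 array left out.

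For dairy minus casein, array weights gave log2 differences of -0.17 for Per2, 0.16 for Cry1, -0.46 for Nr1d1, -0.93 for Dbp and 0.16 for Clock, and gave -1.38 for Per3, beside -0.48 without weights (limma unadjusted p 0.0442, adjusted p 0.159, the lowest of all settings). Without both arrays of narrowest spread they were 0.25 for Cry1, -0.28 for Nr1d1, -0.38 for Dbp and 0.12 for Clock. The acute phase covariate gave 0.04 for Per3, 0.22 for Cry2 and 0.25 for Tef, and quantile normalization 0.09 for Tef. With 1 array left out the differences ran from -0.14 to 0.28 for Per2, -0.27 to 0.23 for Cry1, -0.59 to 0.05 for Cry2, -0.05 to 1.04 for Dbp, -0.30 to 0.19 for Tef and -0.51 to 0.06 for Clock. For leucine minus casein, array weights gave -0.05 for Per2, 0.14 for Cry1, -0.2 for Nr1d2 and -0.62 for Dbp, and leaving out both narrow arrays 0.27 for Cry1, -0.1 for Nr1d2 and -0.26 for Dbp. The covariate gave 0.14 for Nr1d1 and 0.13 for Tef. With 1 array left out the ranges were -0.64 to 0.02 for Per1, -0.34 to 0.40 for Per2, -0.77 to 0.19 for Per3, -0.22 to 0.27 for Cry1, -0.48 to 0.38 for Nr1d1, -0.11 to 0.33 for Nr1d2, -0.58 to 0.72 for Dbp and -0.31 to 0.17 for Tef. For leucine minus dairy, array weights gave 0.13 for Per2, -0.02 for Cry1, 0.31 for Dbp and 0.4 for Tef, and leaving out both narrow arrays 0.12 for Dbp and 0.25 for Tef. Quantile normalization gave -0.0045 for Per3, the covariate -0.09 for Per3 and median centring 0.04 for Tef. With 1 array left out the ranges were -0.45 to 0.28 for Per2, -0.29 to 0.67 for Per3, -0.13 to 0.26 for Cry1, -0.75 to 0.05 for Cry2, -0.97 to 0.32 for Dbp and -0.28 to 0.25 for Tef. The other ranges with 1 array left out held their sign: for dairy minus casein -0.92 to -0.46 for Per1, -0.77 to -0.06 for Per3, 0.02 to 0.99 for Nr1d1 and -0.40 to -0.01 for Nr1d2, for leucine minus casein -0.99 to -0.18 for Cry2 and 0.19 to 0.46 for Clock, and for leucine minus dairy 0.08 to 0.73 for Per1, -1.13 to -0.02 for Nr1d1, 0.14 to 0.57 for Nr1d2 and 0.32 to 0.89 for Clock.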
